A study of Mus musculus with 12 samples.

Results

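The transcripts described here encode subunits of the mitochondrial respiratory chain and ATP synthase, with the assembly factors that share their gene names. They were taken by symbol: names beginning with Ndufa, Ndufb, Ndufc, Ndufs, Ndufv, Uqcr, Cox4i, Cox5, Cox6, Cox7, Cox8 or Atp5, together with *Sdha*, *Sdhb*, *Sdhc*, *Sdhd* and *Cyc1*. Of 10838 named genes with a detected probe, 69 met this rule, each read by the probe with the highest mean signal. Of these, 60 are structural subunits (28 of complex I, 2 of complex II, 6 of complex III, 11 of complex IV and 13 of complex V) and 9 are other products: 7 Ndufaf assembly factors, the supercomplex factor *Cox7a2l* and the pseudogene *Ndufs5-ps*. The same rule takes 97 protein-coding genes of the RefSeq annotation, of which 68 were measured. The other 29, among them *Atp5b*, *Cox8a*, *Sdha*, *Sdhc*, *Ndufs1*, *Uqcrb* and *Uqcrc2*, were not analysed here.

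The respiratory chain sits in the inner mitochondrial membrane. Complexes I and II pass electrons from NADH and succinate to ubiquinone, complex III hands them to cytochrome c, complex IV reduces oxygen, and complex V uses the proton gradient built along the way to make ATP. Hepatocytes are rich in mitochondria and use this chain to oxidise fatty acids and to supply ATP for gluconeogenesis and urea synthesis. Most subunits are encoded in the nucleus and a few in mitochondrial DNA, so both genomes supply parts of the same complexes.

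RNA came from hepatocytes purified from livers of adult GATA4,6 fl/fl mice, in which both genes for these zinc finger transcription factors can be excised by Cre recombinase. The mice, C57BL/6 x 129Sv crosses aged 2.5 to 4.5 months, carried the floxed alleles in both groups and were sampled 2 weeks after intravenous AAV8-Tbg-GFP (AAV-GFP, the control) or AAV8-Tbg-Cre (AAV-Cre). The Tbg promoter is active in hepatocytes, so excision was aimed at these cells only. Each group had 6 samples, each on 1 Illumina MouseWG-6 v2 array, and the labels do not say whether all came from separate animals, so the p-values measure only the spread between these samples. All values below are log2 of quantile-normalized probe signal. A difference is AAV-Cre minus AAV-GFP with the standard error (SE) of limma, a linear model with moderated variances, and adjusted p-values (Benjamini-Hochberg) cover all 20561 kept probes.

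Median signals ran from 215 to 288 over the 12 arrays, with 14318 to 16381 probes detected on each. The *Gata4* probe was detected on 0 AAV-GFP arrays and 1 AAV-Cre array, and 1 probe of *Gata6* was higher by 1.71 (adjusted p = 3.77e-04) on the arrays labelled AAV-Cre. Where these probes lie relative to the excised parts was not known here, and the directions below rest on the labels. AAV-Cre replicate 3 read as female (*Xist* 13.31 against 7.70 to 7.95 elsewhere), and the other 11 arrays read as male. Of 5 measured hepatocyte markers 0 were called (differences -0.03 to 0.16). Of 28 genes listed as markers of other cell types 0 were called at an adjusted p under 0.05. Of the 28, 2 lay under an unadjusted p of 0.05, against 6.03% of all named genes. These 2 were *Reln* of stellate cells and *Elane* of neutrophils. *Reln* differed by -0.88 (SE 0.21, limma adjusted p = 0.205) and *Elane* by 0.16 (SE 0.068, limma adjusted p = 0.947). *Elane* was near background, detected on 1 AAV-GFP array and 5 AAV-Cre arrays. The 6 measured neutrophil markers had a median difference of -0.05, and the 4 of stellate cells one of -0.10. *Reln* lay under the looser adjusted p of 0.25 used below. Of the erythroid markers, *Hba-a1* differed by 0.97 (SE 0.59), *Alas2* by -0.86 (SE 0.43) and *Slc4a1* by -0.06 (SE 0.098). *Ppara* and *Elovl3*, counted under brown fat, were detected on 12 and 11 arrays and are not particular to that tissue.

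No respiratory chain transcript passed the test. At an adjusted p under 0.05, 0 of the 69 were called, against 0.212% of all named genes, and at the looser 0.25 also 0, against 0.747%. At an unadjusted p under 0.05 there was 1, *Cox7a2l*, against 6.03% of all named genes. For 0 of the 69 were the groups without overlap, against 0.655%. A level here is relative to all RNA of the sample, so fewer cells of a type and less RNA per cell cannot be told apart. Of the 69, 36 lay above 0 and 33 below (52.2% above, against 50.3% of all named genes), with a median difference of 0.0068 against 0.0008. With arrays scaled to 1 median in place of quantile normalization, 49 of the 69 lay above 0 (71.0%, against 50.3% of all named genes) with a median of 0.031, and 0 were called. Without AAV-Cre replicate 3, 40 lay above 0, the median was 0.010 and 0 were called.

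The size of the differences was described over the 64 transcripts detected on all 12 arrays. Their median absolute difference was 0.049, against 0.074 for the 7110 named genes detected on all arrays, and the median SE was 0.0831 against 0.102. For 64 of the 64 (against 88.1% of those genes) the 95% confidence interval lay within a 1.5-fold change in either direction, and for 52 (81.2%, against 55.8%) within a 1.25-fold change. Because background was left in the signal, fold changes of dim probes are compressed, and narrow intervals of probes near background say little of their transcripts. The interval counts were not repeated with background taken out. There the dim *Cox7a1* differed by 0.40 and *Atp5o* by -0.35, while the bright *Cox4i1* stayed at 0.09. Of the other 5, *Ndufaf3* was detected on 11 arrays, *Atp5k* on 10, *Cox6b2* on 8, *Ndufb11* on 4 and *Uqcrfs1* on 1.

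**Figure D1:**
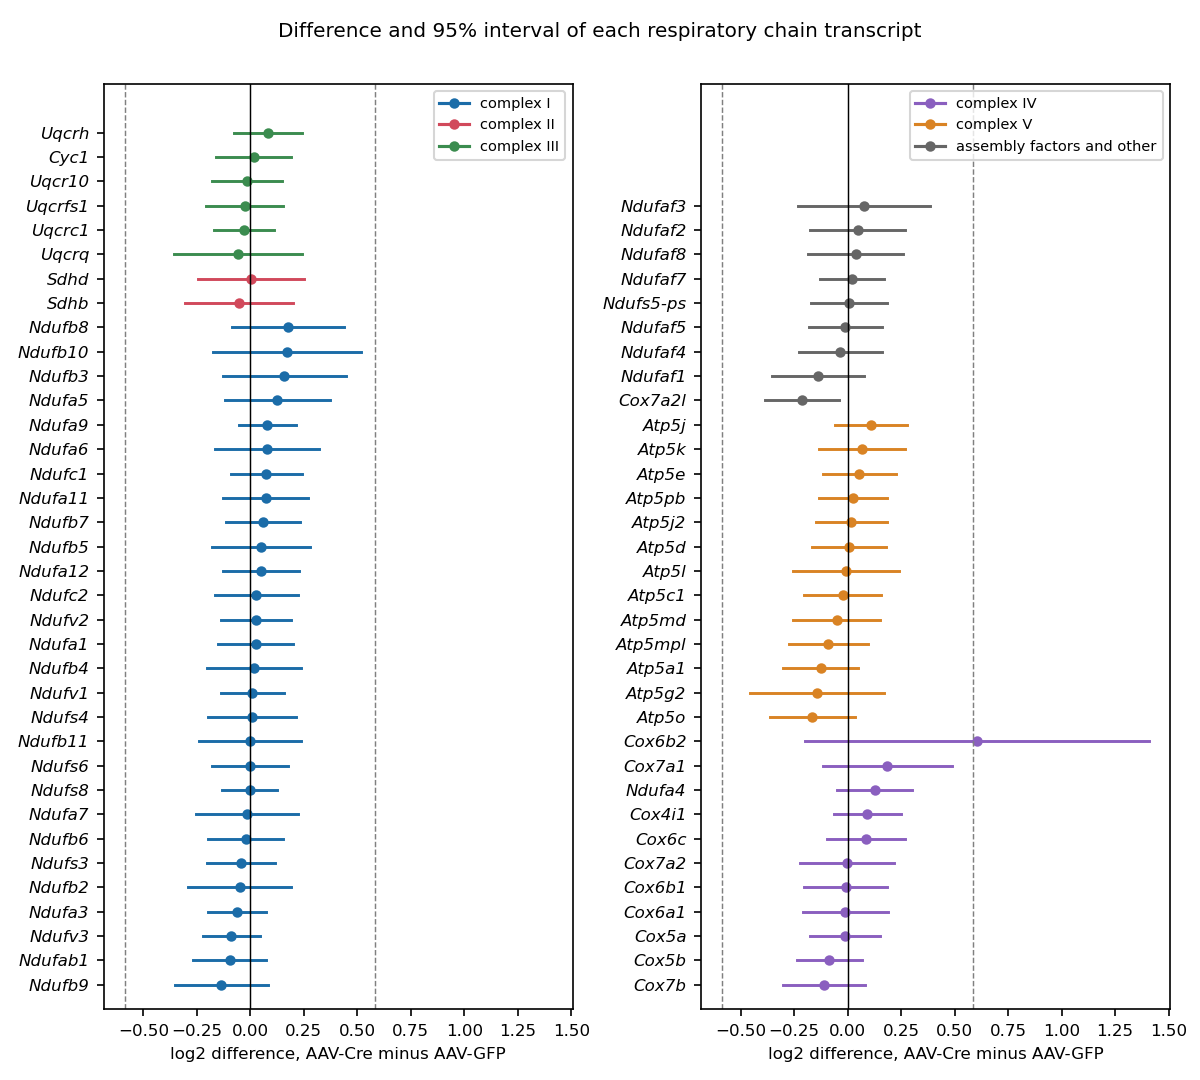
Each point is the log2 difference of 1 transcript (AAV-Cre minus AAV-GFP, 6 arrays each, x axis) and each bar its 95% confidence interval from limma, coloured by complex; dashed lines mark a 1.5-fold change. The intervals of the 64 transcripts detected on every array lie between the dashed lines, *Cox6b2* crosses one, those of *Uqcrfs1* and *Ndufb11* come from probes mostly at background, and *Cox7a2l* has an interval that leaves out 0 before adjustment.

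Complex I, which oxidises NADH, was represented by 28 subunits, of which 17 lay above 0 and 11 below (median 0.021). Its 4 measured core subunits, the catalytic part conserved from bacteria, varied little. *Ndufs8*, an iron-sulfur subunit, read 13.01 to 13.09 (median 13.04) on AAV-GFP arrays and 12.87 to 13.16 (median 13.07) on AAV-Cre arrays. *Ndufv1*, which holds the NADH binding site, read 14.21 to 14.50 (median 14.43) and 14.30 to 14.51 (median 14.38). For *Ndufv1* the ranges of the groups overlapped almost entirely, while for *Ndufs8* 4 of 6 AAV-Cre arrays lay outside the narrow AAV-GFP range, 2 under it and 2 over it. The differences of the 4 core subunits (with *Ndufv2* and *Ndufs3*) ran from -0.05 to 0.03. Of named genes detected on all arrays, only 0.506% had a smaller SD within groups than *Ndufs8* (0.076), and 14.2% a smaller one than *Ndufv2* (0.122), the most variable of the 4.

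The 24 accessory subunits of complex I, which surround that core, spread more widely, from -0.13 to 0.18, with 15 above 0 and 9 below. *Ndufb8*, of the membrane arm, read 8.63 to 9.39 (median 9.18) on AAV-GFP arrays and 8.96 to 9.43 (median 9.36) on AAV-Cre arrays. Of 6 AAV-Cre arrays 5 lay above the AAV-GFP median (difference 0.18, SE 0.12, limma adjusted p = 1). *Ndufb3*, of the same arm, differed by 0.16 (SE 0.13) and *Ndufa9* by 0.08 (SE 0.062), while *Ndufb9* lay lower by 0.13 (SE 0.10), *Ndufab1*, the mitochondrial acyl carrier protein, by 0.10 (SE 0.080) and *Ndufv3* by 0.09 (SE 0.062). None of these 6 was called, and all were measured on every array. The 4 kept probes of *Ndufab1* ran from -0.10 to 0.09 and the 3 of *Ndufv3* from -0.14 to 0.07, so their direction depends on the probe. *Ndufb10* read 12.45 to 12.78 on 5 AAV-GFP arrays and 11.64 on AAV-GFP replicate 5, and its second probe differed in the other direction (-0.06 against 0.17).

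Complex II, succinate dehydrogenase, links the citrate cycle to the chain, and 2 of its 4 subunits were measured. *Sdhb*, the iron-sulfur subunit, read 12.52 to 12.80 (median 12.68) on AAV-GFP arrays and 12.19 to 12.82 (median 12.77) on AAV-Cre arrays. AAV-Cre replicates 2, 4, 5 and 6 lay at 12.72 to 12.82, within or just over the AAV-GFP range, and AAV-Cre replicates 1 and 3 (12.35 and 12.19) lay under all AAV-GFP values. The difference was -0.05 (SE 0.12, limma adjusted p = 1), and its other 2 probes were below 0 as well, 1 of them detected on only 5 arrays. *Sdhd*, a membrane anchor, read 10.79 to 11.31 (median 11.00) and 10.65 to 11.22 (median 11.08), a difference of 0.0014 (SE 0.12).

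Of 6 complex III transcripts 2 lay above 0 and 4 below, from -0.06 to 0.08 (median -0.021). *Cyc1*, cytochrome c1, read 13.24 to 13.53 (median 13.32) on AAV-GFP arrays and 13.13 to 13.55 (median 13.39) on AAV-Cre arrays, so the groups overlapped almost entirely (difference 0.02, SE 0.082). *Uqcrc1*, a core protein, differed by -0.03 (SE 0.065) and *Uqcrh*, the hinge protein, by 0.08 (SE 0.074). The probe of *Uqcrfs1*, the Rieske iron-sulfur protein, was detected on 1 array and says nothing of the level of that transcript. *Uqcrq*, a small accessory subunit, stood out by sample and not by group: it read 10.16 on AAV-GFP replicate 1 and 10.10 on AAV-Cre replicate 1, and 9.29 to 9.78 on the other 10 arrays (difference -0.06, SE 0.14).

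Complex IV, cytochrome c oxidase, had 5 transcripts above 0 and 6 below (median -0.0024). Several of its nuclear subunits come in isoforms for different tissues, and those that liver uses did not pass: *Cox4i1* differed by 0.09 (SE 0.072), *Cox6a1* by -0.0102 (SE 0.092), *Cox6b1* by -0.0091 (SE 0.090) and *Cox7a2* by -0.0024 (SE 0.10). *Ndufa4*, once assigned to complex I and now counted as a subunit of complex IV, read 15.22 to 15.57 (median 15.43) on AAV-GFP arrays and 15.33 to 15.67 (median 15.59) on AAV-Cre arrays. On 3 of 6 AAV-Cre arrays it lay above every AAV-GFP value (difference 0.13, SE 0.081, limma adjusted p = 1, exact permutation p = 0.134). *Cox7a1*, the heart and muscle isoform, read 8.40 to 9.12 (median 8.62) and 8.42 to 9.09 (median 8.90). The groups shared 1 range, with 4 AAV-Cre arrays and 1 AAV-GFP array at 8.89 or above (difference 0.19, SE 0.14, limma adjusted p = 1). At the low end *Cox7b* differed by -0.11 (SE 0.089) and *Cox5b* by -0.08 (SE 0.070).

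*Cox6b2*, an isoform known from testis, gave the largest difference of all 69 and the widest interval. It read 7.82 to 9.48 (median 8.53) on AAV-GFP arrays and 7.95 to 9.74 (median 9.44) on AAV-Cre arrays. The values fell apart by sample: AAV-GFP replicates 1, 5 and 6 and AAV-Cre replicate 3 lay at 7.82 to 7.95, where the probe was not detected, and the other 8 arrays lay at 9.08 to 9.74. The difference was 0.60 (SE 0.37, 95% interval -0.20 to 1.41, limma adjusted p = 1, exact permutation p = 0.165), and no value lay between 7.95 and 9.08. Its SD within groups was larger than that of 98.0% of genes detected on all arrays. Without AAV-Cre replicate 3 the difference was 0.85 (limma adjusted p = 0.883).

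**Figure D2:**
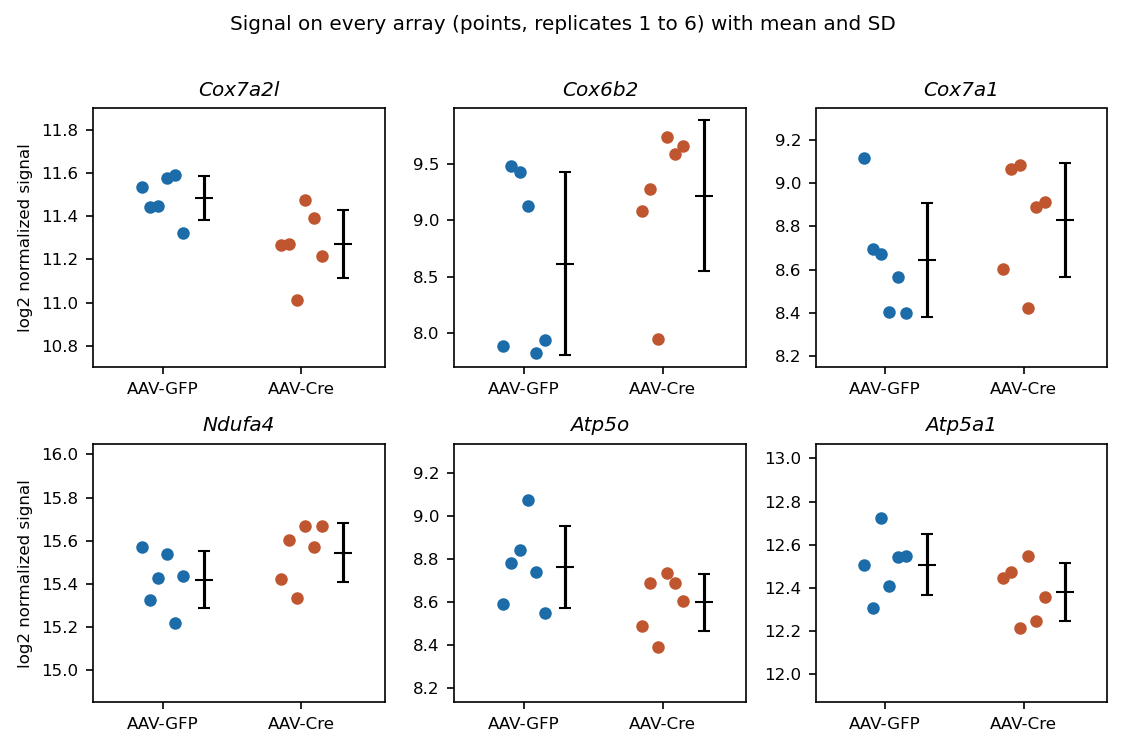
Points are the log2 normalized signals (y axis, every panel at least 1.2 log2 units high) of 6 AAV-GFP and 6 AAV-Cre arrays for 6 named transcripts, in order of replicate number, with the mean and SD of each group beside them. The groups overlap in every panel, and *Cox6b2* splits into arrays near 7.9 and arrays above 9.

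Complex V, the ATP synthase, had 6 transcripts above 0 and 7 below, from -0.16 to 0.11 (median -0.0076). In its F1 head, the part that binds nucleotides, *Atp5a1* (the alpha subunit) read 12.31 to 12.72 (median 12.52) on AAV-GFP arrays and 12.21 to 12.55 (median 12.40) on AAV-Cre arrays. Only AAV-Cre replicates 3 and 5 lay under every AAV-GFP value (difference -0.13, SE 0.082, limma adjusted p = 1), and a second probe differed by 0.04. The other head subunits measured, *Atp5c1*, *Atp5d* and *Atp5e*, differed by -0.02, 0.0070 and 0.06. In the stalk, *Atp5o*, which ties the head to the peripheral stalk, read 8.55 to 9.08 (median 8.76) and 8.39 to 8.73 (median 8.64). All 6 AAV-Cre arrays lay under the AAV-GFP median, and the ranges overlapped (difference -0.16, SE 0.093, limma adjusted p = 1, exact permutation p = 0.113). Of the 3 genes for the membrane ring subunit c, only *Atp5g2* was measured, at -0.14 (SE 0.15), with its lowest value, 11.07, on AAV-Cre replicate 1. *Atp5j*, the coupling factor 6 subunit, differed by 0.11 (SE 0.077).

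Among the 9 other products, *Cox7a2l* had the lowest p of all 69. It encodes a factor that joins complexes III and IV into supercomplexes. It read 11.32 to 11.59 (median 11.49) on AAV-GFP arrays and 11.01 to 11.48 (median 11.27) on AAV-Cre arrays, and 4 of 6 AAV-Cre arrays lay under every AAV-GFP array. It lay lower by 0.21 (SE 0.080), a fold of 0.862 with a 95% interval of 0.765 to 0.972. This passed before adjustment (unadjusted limma p = 0.0193, exact permutation p = 0.0173) and not after it (limma adjusted p = 0.797). The lowest value was on AAV-Cre replicate 3, without which the difference was -0.16 (limma adjusted p = 1). The 7 Ndufaf factors, which build complex I and are not part of it, differed by -0.14 (*Ndufaf1*, SE 0.10) to 0.08 (*Ndufaf3*, SE 0.14).

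For 21 of the 69 genes more than 1 probe was kept, 98 probes in all. At 12 of these genes all probes differed in the same direction and at 9 they did not. Some of the other probes were near background: those of *Atp5j* and *Ndufb11* were detected on 1 array, that of *Ndufc2* on 3 and 1 of *Sdhb* on 5. Their directions say little. Over all 98 probes 0 were called, and the median difference was 0.0041.

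While the groups did not separate, the transcripts varied together from array to array. Each array was described by the mean deviation of the 64 transcripts detected everywhere from their own means over 12 arrays. It was -0.125 on AAV-Cre replicate 1, -0.092 on AAV-GFP replicate 5 and -0.081 on AAV-GFP replicate 6, and highest on AAV-Cre replicates 2 (0.086), 5 (0.078) and 4 (0.069). In the AAV-GFP group the highest were replicates 3 (0.060) and 4 (0.043). On AAV-Cre replicate 1, 14 of the 64 lay above their own mean, and on AAV-Cre replicate 5, 53 did. On the 3 low arrays the median signal was 288 (AAV-Cre replicate 1, the highest of the 12), 242 (AAV-GFP replicate 5) and 256 (AAV-GFP replicate 6), and 15872, 15194 and 14318 probes were detected, the last being the fewest of the 12. AAV-Cre replicate 5, a high array, had the lowest median signal (215) and 14754 probes detected. The part of signal and detection in these means was not tested.

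After removal of group means, pairs of the 64 transcripts correlated over the 12 arrays with a median r of 0.272 (2016 pairs), against 0.003 for pairs of all 7110 named genes detected on every array. All pairs share the same 12 arrays and their normalization, so these values are a description. Pairs within 1 complex (median 0.273) and pairs from different complexes (0.282) had medians close to each other. Cytosolic ribosomal protein transcripts had a median of 0.471 and mitochondrial ribosomal protein transcripts 0.288. With median scaling the value for the respiratory chain was 0.472, against 0.040 for all genes, and leaving out 1 array at a time it ran from 0.193 (without AAV-Cre replicate 1) to 0.294. The transcripts most like the mean of the others were *Ndufa5* of complex I (r = 0.895 over 12 arrays), *Cox7a2* of complex IV (0.871) and *Atp5md* of complex V (0.845). The least like was *Uqcrq* (r = -0.586), which was high on both replicates 1.

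**Figure D3:**
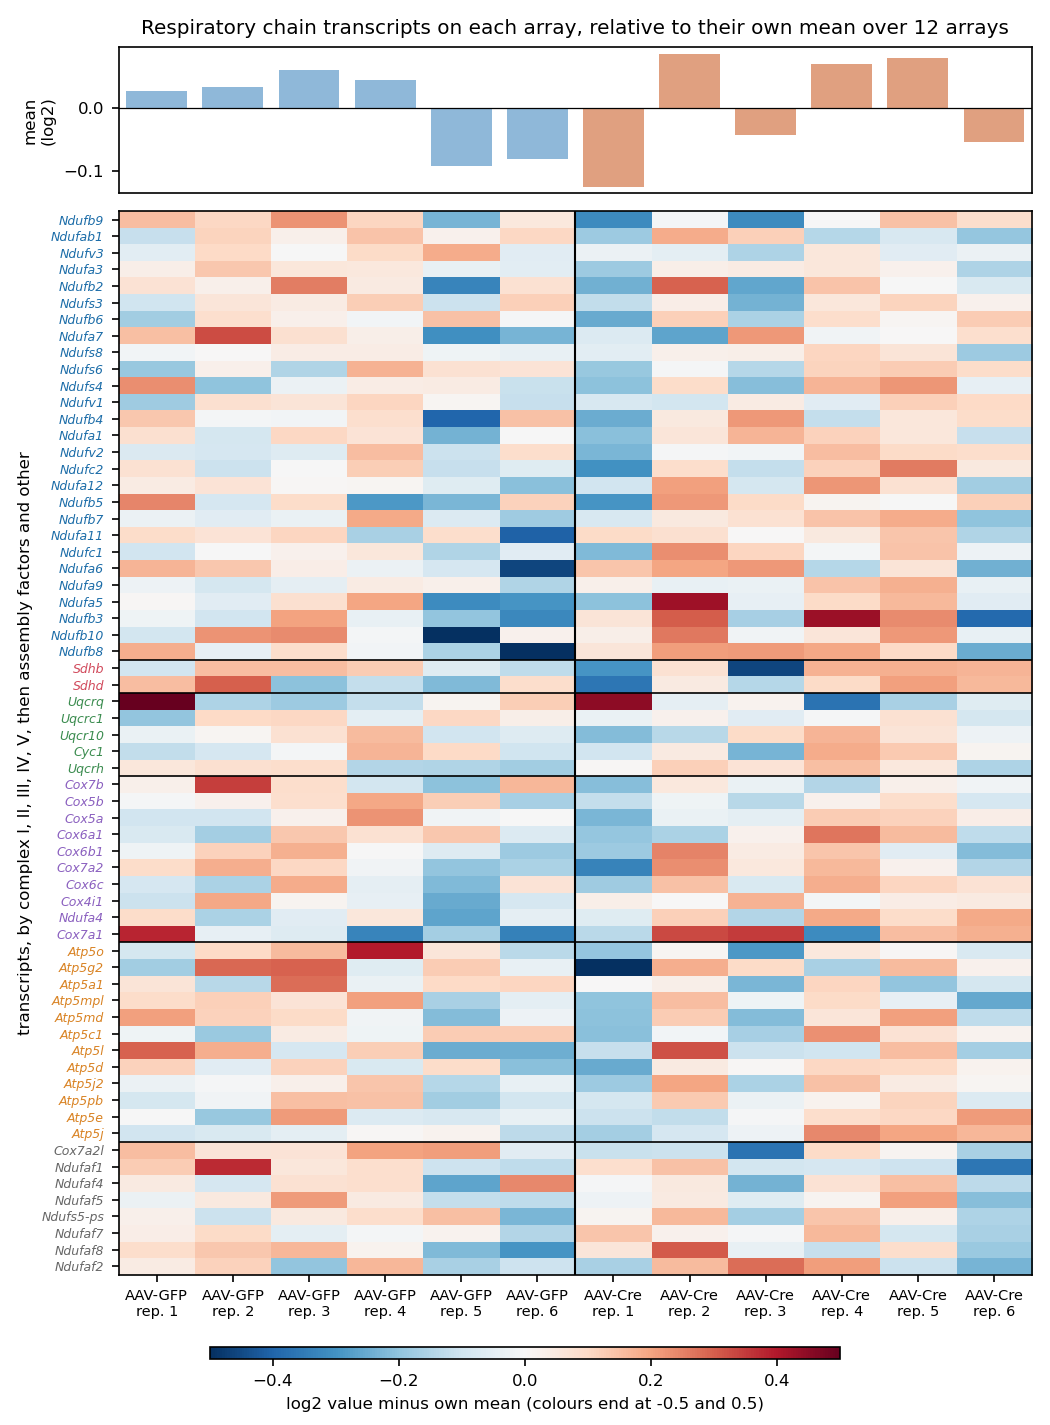
Rows are the 64 transcripts detected on all arrays, ordered by complex, and columns the 12 arrays; colour gives the log2 value minus the transcript's own mean, and the bars above give the mean of each column. AAV-Cre replicate 1 and AAV-GFP replicates 5 and 6 are mostly blue, with column means of -0.125, -0.092 and -0.081, and the vertical line between the groups marks no general change of colour.

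The 250 bases before the RefSeq start site (GRCm38.p6) were searched on both strands for GATA motifs (AGATAA as well as AGATAG, and both with T as the first letter), for the motif of NRF1, a regulator of many respiratory chain genes (GCGCATGCG or the same with C in the place of its T), and for an ETS motif (CCGGAAG) of the kind that GABPA binds. None of these motifs contains another. Windows were held for 61 of the 69 genes. A GATA motif was found in 15 (24.6%), against 24.3% of 17486 protein-coding genes. The NRF1 motif was found in 8 (13.1%, against 3.88%) and the ETS motif in 11 (18.0%, against 9.15%). The median difference was 0.025 for the 15 genes with a GATA motif, of which 8 lay above 0, and 0.0042 for the 46 without one, of which 24 did. A match describes letters in this window and no binding site, and whether GATA4 or GATA6 binds there was not tested here.

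Windows of 2 complex IV genes described above are shown, *Cox7a1* because it held the most GATA motifs and *Ndufa4* because it had the lowest p among genes with a GATA motif, with these motifs in capitals. *Cox7a1* holds 3 (chr7:30183921-30184170, plus strand) and *Ndufa4* holds 1 (chr6:11907451-11907700, minus strand).
Cox7a1: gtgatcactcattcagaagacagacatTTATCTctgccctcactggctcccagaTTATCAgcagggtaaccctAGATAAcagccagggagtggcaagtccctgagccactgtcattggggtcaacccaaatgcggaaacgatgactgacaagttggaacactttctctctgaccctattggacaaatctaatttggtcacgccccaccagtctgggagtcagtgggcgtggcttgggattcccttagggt
Ndufa4: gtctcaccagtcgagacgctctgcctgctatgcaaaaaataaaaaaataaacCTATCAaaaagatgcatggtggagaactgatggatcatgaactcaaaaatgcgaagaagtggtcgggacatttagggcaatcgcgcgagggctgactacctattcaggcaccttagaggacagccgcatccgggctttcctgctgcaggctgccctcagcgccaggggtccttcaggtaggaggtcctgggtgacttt

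The next pair is shown because each window holds a GATA motif and, elsewhere in it, an NRF1 or ETS motif. Those motifs were more frequent in these promoters than in all. *Ndufaf1* and *Ndufs3* also hold 1 GATA and 1 ETS motif each and are not shown. *Ndufa11*, a complex I subunit that differed by 0.07 (SE 0.093), holds 1 GATA motif and NRF1 matches on both strands that overlap (chr17:56717512-56717761, plus strand). *Cox6b1* holds 1 GATA and 1 ETS motif (chr7:30626115-30626364, minus strand). Capitals mark both kinds.
Ndufa11: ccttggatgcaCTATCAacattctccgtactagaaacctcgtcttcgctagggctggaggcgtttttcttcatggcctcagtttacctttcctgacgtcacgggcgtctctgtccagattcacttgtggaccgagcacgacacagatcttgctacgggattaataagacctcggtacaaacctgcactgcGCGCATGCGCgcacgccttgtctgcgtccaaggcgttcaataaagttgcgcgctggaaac
Cox6b1: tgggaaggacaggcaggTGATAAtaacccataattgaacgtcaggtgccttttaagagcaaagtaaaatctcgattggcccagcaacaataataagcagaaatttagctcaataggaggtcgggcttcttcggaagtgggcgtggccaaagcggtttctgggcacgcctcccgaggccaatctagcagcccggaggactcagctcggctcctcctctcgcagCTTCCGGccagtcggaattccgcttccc

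Genes that work with the respiratory chain were counted in the same fit, in which 50.3% of all named genes lay above 0 and 0.212% were called at an adjusted p under 0.05. Of 5 transcripts annotated to mitochondrial DNA, 2 lay above 0 and 3 below, from -0.18 (*ND4L*, SE 0.22) to 0.07 (*ATP6*, SE 0.092), and 0 were called. Of 39 assembly factors, 6 of them also among the 69, 17 lay above 0 (median -0.015; 23 with median scaling, median 0.012) and 0 were called. *Sco1*, which delivers copper to complex IV, differed by -0.17 (SE 0.063), and *Cox15*, needed for its heme, by 0.41 (SE 0.15, limma adjusted p = 0.797 for both). Of 26 carriers, porins and partners of the chain, 17 lay above 0 (median 0.028) and 0 were called. *Etfdh* and *Etfb*, which pass electrons from fatty acid oxidation to ubiquinone, differed by 0.17 (SE 0.066) and 0.16 (SE 0.073). Of 22 regulators of mitochondrial biogenesis, 8 lay above 0 (median -0.017; 11 with median scaling) and 0 were called, with *Esrrg* at 0.40 (SE 0.19) and *Pprc1* at 0.33 (SE 0.17) lowest in p.

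Of 17 genes of the citrate cycle and its entry enzymes, 13 were above 0 (76.5%, against 50.3% of all named genes), with a median of 0.085 (13 also with median scaling). Of these 13, 5 had an unadjusted limma p under 0.05, against 0 of those below 0 and 6.03% of all named genes. *Idh3a*, the catalytic subunit of NAD-dependent isocitrate dehydrogenase, read 9.72 to 10.14 (median 9.98) on AAV-GFP arrays and 10.04 to 10.68 (median 10.60) on AAV-Cre arrays. The 2 ranges overlapped only at their ends (difference 0.51, SE 0.11, limma adjusted p = 0.152, exact permutation p = 0.00866). *Idh3a* was the only one of the 17 under an adjusted p of 0.25, against 0.747% of all named genes. Leaving out 1 array at a time, its limma adjusted p ran from 0.0191 to 0.360, under 0.25 in 5 of 12 fits (0.275 without AAV-Cre replicate 3). With normexp background correction 0 of the 17 were under 0.25. *Idh2*, the NADP-dependent mitochondrial enzyme, differed by 0.45 (SE 0.13, limma adjusted p = 0.405). Array means of the citrate cycle list lay at -0.099 to -0.033 in the AAV-GFP group. In the AAV-Cre group they lay at 0.047 to 0.120 on 5 arrays and at -0.081 on replicate 1, the array on which the respiratory chain was lowest as well.

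Fatty acid oxidation genes lay above 0 in 17 of 17 cases, against 50.3% of all named genes (median 0.091, and 16 above 0 with median scaling). Of these 0 were called, and *Ech1* had the lowest p (difference 0.26, SE 0.11, limma adjusted p = 0.883). Array means of this list ran from -0.209 to 0.142 in the AAV-GFP group and from -0.287 to 0.232 in the AAV-Cre group, and the ranges of the groups overlapped. Of 72 mitochondrial ribosomal proteins, 31 lay above 0 (median -0.016), and 41 with median scaling (median 0.010). Of the 72, 1, *Mrpl23*, passed an adjusted p of 0.25, against 0.747% of all named genes. It fell by 0.44 (SE 0.089, limma adjusted p = 0.0972), a call lost with median scaling and with normexp. Of 44 cytosolic ribosomal proteins 26 lay above 0 (median 0.027; 31 with median scaling) and 0 were called. The scaling alternatives for these lists were chosen after the data were seen.

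**Figure D4:**
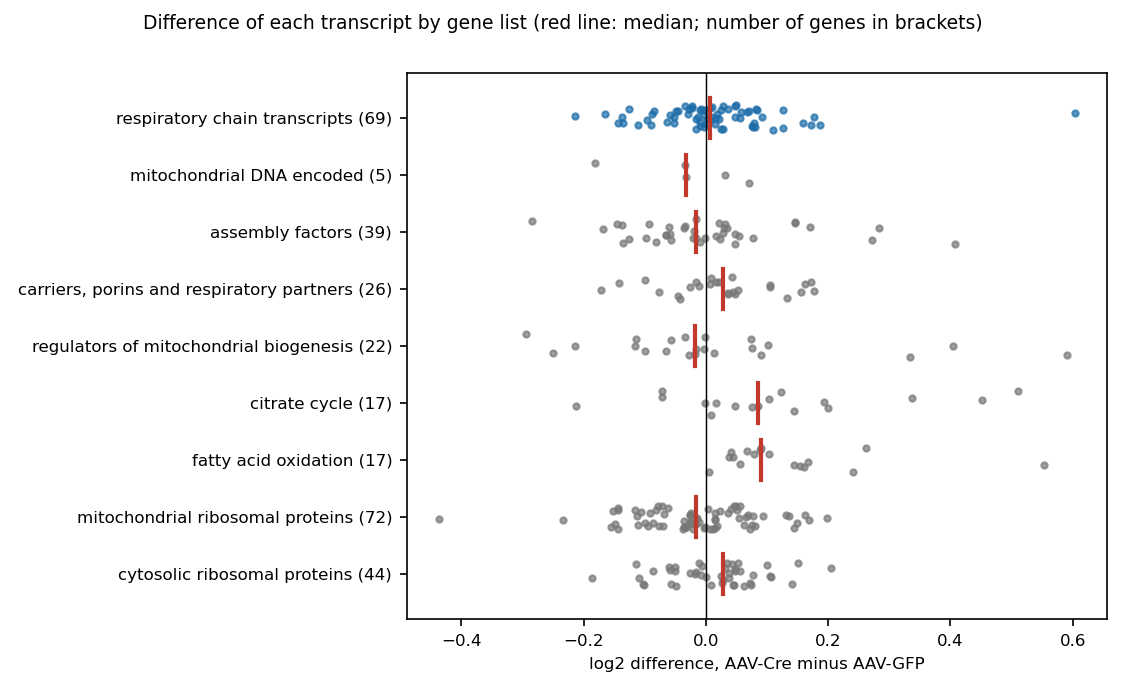
Each point is 1 transcript's log2 difference (AAV-Cre minus AAV-GFP, x axis), by gene list (y axis, number of genes in brackets), and red lines are medians. The respiratory chain lies around 0 with a median of 0.0068, while the medians of the citrate cycle (0.085) and fatty acid oxidation (0.091) lists lie to its right.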

How the data were processed

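The authors amplified total RNA (RNA integrity number over 7.5), hybridised it to MouseWG-6 v2 arrays and exported a probe signal and a detection p-value from GenomeStudio (version not given in the sources used here). Each deposited intensity is linear, with background left in. The deposited detection p-value sets a probe against the negative controls of its array. The authors' quantile-normalized intensities, a second deposited table, were used as an alternative. Here the exported signal was quantile-normalized, probes with a detection p at most 0.05 on at least 1 of 12 arrays were kept (20561, of which 16568 had 1 gene symbol from the platform annotation) and log2 values were fitted with limma 3.58.1 in R 4.3.3 (two-sided, Benjamini-Hochberg). The study's SAM test was not run. Its threshold of 0.25 was carried over beside 0.05. Exact permutation tests used all 924 assignments (smallest p 0.00216). The number of arrays limits the precision. The members, gene lists and the rule for named genes were chosen with earlier results of these data known. The rule named up to 3 members above and 3 below 0 with the lowest p in each complex, listed isoforms, members with a sample far from its group, and the 3 most like the others; further members named in the text were chosen after their values were seen. Promoter windows came from RefSeq tables (GRCm38.p6), at the most upstream start of each gene; no window was held for *Atp5a1*, *Atp5mpl*, *Cox4i1*, *Cox6c*, *Cyc1*, *Ndufb9*, *Ndufs5-ps* and *Uqcrq*. The alternatives were a replicate block, normexp background correction, median scaling, the authors' values, 3 other detection filters, all probes, updated symbols, structural subunits only, and leaving out each array.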

Additional observations from a re-analysis of the deposited data

Results flagged for a closer look

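In 8 of 138 sets of 6 values (69 transcripts in each group), 1 array lay far from the rest of its group by Dixon's criterion, and chance flags about 1 in 20 such sets. AAV-GFP replicate 5 was the low array for 3 subunits of the complex I membrane arm: *Ndufb10* (11.64, nearest value 12.45), *Ndufb4* (8.78, nearest 9.17) and *Ndufb9* (10.77, nearest 11.06). *Ndufb8*, of the same arm, was low on AAV-Cre replicate 6 (8.96, nearest 9.27). *Cox4i1* was high on AAV-Cre replicate 3 (15.50, nearest 15.37) and *Cox5a* on AAV-GFP replicate 4 (15.12, nearest 14.91). *Cox6b2* was low on AAV-Cre replicate 3 (7.95, nearest 9.08), a level it also had on 3 AAV-GFP arrays. *Atp5d* was low on AAV-Cre replicate 1 (12.80, nearest 13.06), the array with the lowest mean of all 64 transcripts detected throughout.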

How the results depend on the processing

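In all 22 alternatives, 0 respiratory chain transcripts were called at an adjusted p under 0.05 and 0 under 0.25. Updating symbols changed 0 symbols, and the restriction to structural subunits drops members from the same fit. Neither could have added a call. Leaving out 1 array at a time, 29 to 46 lay above 0, the median difference ran from -0.013 (without AAV-Cre replicate 5) to 0.028 (without AAV-Cre replicate 1), and the lowest adjusted p of any member from 0.626 to 1. Of 41 named members 27 kept their sign in the 18 to 21 alternatives that read each by 1 probe, and 5 of these had another probe of the opposite sign. The difference of *Atp5o* moved by more than 1 SD, to -0.35, with normexp background correction, which takes background out of a dim probe; *Cox6b2* differed by 1.30 there. The median pairwise r was 0.472 with median scaling and 0.271 with normexp, alternatives chosen after the data were seen. With the replicate number as a block, 36 lay above 0, the median difference was 0.0068, 3 had an unadjusted limma p under 0.05 against 1, and the lowest adjusted p was 0.486 (*Cox7a2l*). The block changed no call of the respiratory chain. Of the related lists it took the citrate cycle from 1 to 3 genes under an adjusted p of 0.25 (0 under 0.05) and left fatty acid oxidation at 0. The share of all named genes under 0.25 in that fit was not counted. The deviations of same-numbered arrays correlated at -0.195 to 0.399, over 0.1 in 4 of 6 pairs, and 7 of 12 arrays correlated best with their own number. This is a hint of pairing from the data, and the sample titles give both groups the same numbers without calling them pairs. As 2 pairs lay under 0.1, the fit without the block was kept. SEs and limma p-values not marked as from the block are therefore unpaired, as are the exact permutation p-values. Of the related genes, *Mrpl23* kept an adjusted p under 0.25 when any 1 array was left out (0.0296 to 0.248). Dim probes limit *Uqcrfs1*, *Ndufb11* and *Cox6b2*, which were detected on 1, 4 and 8 arrays. Probes detected on more arrays were dim as well: with normexp *Cox7a1* differed by 0.40 against 0.19, *Atp5k* by 0.21 against 0.07 and *Ndufaf3* by 0.18 against 0.08.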
